A study of Mus musculus with 24 samples.

Results

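The kidneys of male BPH/2J mice, the Schlager hypertensive strain, were compared with those of male BPN/3J mice, its normotensive counterpart, over 6 arrays of each strain out of 24 in the study. The 12 arrays were taken by strain and gender label. All were from whole kidneys of mice aged 12 weeks, with no drug or transgene named in the labels, and each array held the RNA of 1 mouse. The other 12 arrays, from 6 BPH/2J and 6 BPN/3J females of the same age, were used here only to test whether a male difference was also the female one. Expression is given as RMA values in log2 units from Affymetrix Mouse Gene arrays, so a difference of 1 is a 2-fold change, and each array measured 28853 probe sets, of which 21159 carry exactly 1 gene symbol and stand for 18782 genes. Each strain is 1 inbred line produced by selective breeding, so that raised blood pressure and any other trait fixed in that line cannot be told apart, and blood pressure was recorded in other mice.

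The kidney filters plasma in the glomerulus, where podocytes cover the capillaries, and recovers most of the filtrate in the proximal tubule. The thick ascending limb, the distal convoluted tubule and the collecting duct then adjust salt, calcium, acid and water, and the amount of salt kept is one of the main long-term determinants of blood pressure. Proximal tubule cells live mainly from fatty acid oxidation, and in mice many of their transporters and drug-metabolising enzymes depend on sex hormones.

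Sex and tissue labels held in every male array, and no gene here tests the strain label. *Xist*, the RNA that coats the inactive X chromosome of females, was 4.61 to 5.53 in BPH/2J males, against 4.96 to 5.75 in BPN/3J males, against 12.26 to 12.51 in all females. Defining kidney genes were high in both male groups, such as *Umod*, the uromodulin of the thick ascending limb (13.55 to 13.64 in BPH/2J males, against 13.45 to 13.59 in BPN/3J males), and *Slc34a1*, the proximal phosphate transporter (13.68 to 13.73 in BPH/2J males, against 13.64 to 13.70 in BPN/3J males). The highest value of each male array was 14.38 to 14.52. Differences of genes near that top, here and below, may be compressed, which was not tested. Values within or below those of *Xist* in males lie close to the floor of the arrays, here and below. Transcripts of liver and adrenal gland varied within both strains. Averaged over 17 hepatocyte genes, the arrays read 6.52 to 9.27 in BPH/2J males, against 6.53 to 8.63 in BPN/3J males, and over 8 adrenal cortex genes 5.96 to 8.43 in BPH/2J males, against 5.80 to 8.88 in BPN/3J males. The lists of adrenal medulla (6.71 to 7.86 in BPH/2J males, against 6.53 to 7.94 in BPN/3J males), fat (8.34 to 8.88 in BPH/2J males, against 7.68 to 8.90 in BPN/3J males) and red cell genes (7.55 to 7.76 in BPH/2J males, against 7.54 to 7.70 in BPN/3J males) also overlapped between the strains. The list of 8 skeletal muscle genes overlapped only in part (6.04 to 6.17 in BPH/2J males, against 6.13 to 6.21 in BPN/3J males). Its mean was lower in BPH/2J males, at 6.09 against 6.17.

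At the Bonferroni threshold of the methods, 740 probe sets differed between BPH/2J and BPN/3J males (2.56% of all), 328 higher (1.14%) and 412 lower (1.43%) in BPH/2J males. Among genes with a symbol of their own, 249 were higher (1.33%) and 234 lower (1.25%), together 2.57% of 18782, and in each of the 483 the highest array of one strain lay below the lowest of the other. Their median difference was 0.63 on the log2 scale, the smallest was 0.27, 111 differed by 2-fold or more and 22 by 4-fold or more. For pathway members the level was a Benjamini-Hochberg adjusted p of at most 0.05, at which 1611 genes were higher (8.58%) and 1528 lower (8.14%), together 16.7%, and the median over all genes was 0.00. The arrays of the strains did not overlap for 10.9% of all genes. A signed number beside a gene is its log2 difference, BPH/2J minus BPN/3J, in males unless females are named.

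The largest rise was in *Hdc*, histidine decarboxylase, the enzyme that makes histamine. Its lowest, median and highest arrays were 11.88, 12.03 and 12.33 in BPH/2J males, against 6.17, 6.51 and 6.75 in BPN/3J males, a 48.4-fold difference (log2 fold change 5.60 (standard error 0.101), Bonferroni-adjusted p = 1.72e-12). *Serpina1d*, one of the antitrypsin genes, had 9.95, 10.18 and 10.30 in BPH/2J males, against 5.26, 5.78 and 6.72 in BPN/3J males. The antitrypsin genes are near copies of one another, so the probe set may share signal with its relatives. *Angptl7*, a secreted angiopoietin-like protein, had 12.67, 12.78 and 12.89 in BPH/2J males, against 8.17, 8.75 and 9.05 in BPN/3J males, and *Cbr2*, a carbonyl reductase, had 11.47, 11.68 and 12.13 in BPH/2J males, against 8.19, 8.41 and 8.91 in BPN/3J males. The groups were wide apart in all of these.

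*Ttr*, which encodes the thyroid hormone carrier transthyretin and is made chiefly by liver, had a wide spread among BPN/3J males, at 11.48, 11.77 and 11.96 in BPH/2J males, against 7.46, 8.74 and 9.66 in BPN/3J males. With the hepatocyte mean as a covariate its difference was 3.25, against 3.15 (standard error 0.345) without it. *Gabra3*, a subunit of the GABA-A receptor, showed hardly any spread (8.33, 8.52 and 8.68 in BPH/2J males, against 5.45, 5.58 and 5.64 in BPN/3J males), and neither did *Atp10d*, a flippase of membrane lipids (9.60, 9.72 and 9.80 in BPH/2J males, against 7.56, 7.58 and 7.62 in BPN/3J males). *Gas6*, the ligand of the TAM receptor kinases, was 11.44 to 11.63 in BPH/2J males, against 9.73 to 9.83 in BPN/3J males, and *Gdpd3*, which cleaves lysophospholipids, was 10.52 to 10.73 in BPH/2J males, against 8.17 to 8.31 in BPN/3J males. For *Gabra3*, *Atp10d*, *Gas6* and *Gdpd3* the range within each strain was a small part of the strain difference.

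Other genes among the 20 largest rises had varied roles. *Atp4a*, the catalytic subunit of the gastric proton-potassium pump, rose by 2.04 on the log2 scale (standard error 0.126), and *H60b*, a ligand of the NKG2D receptor of natural killer cells, by 1.89 (0.0767). *Snx31*, a sorting nexin, was 3.67-fold higher and *Scgb1c1*, a secretoglobin, 3.49-fold higher. The small nucleolar RNA *Snord53* (2.62), the long noncoding RNA *Lncpint* (1.77), the zinc finger gene *Zfp605* (2.31), *Plekhb1* (1.89), *Aldh1a7* (2.43), *Ces1g* (2.57) and *Cyp4b1* (1.78) complete them.

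**Figure D1:**
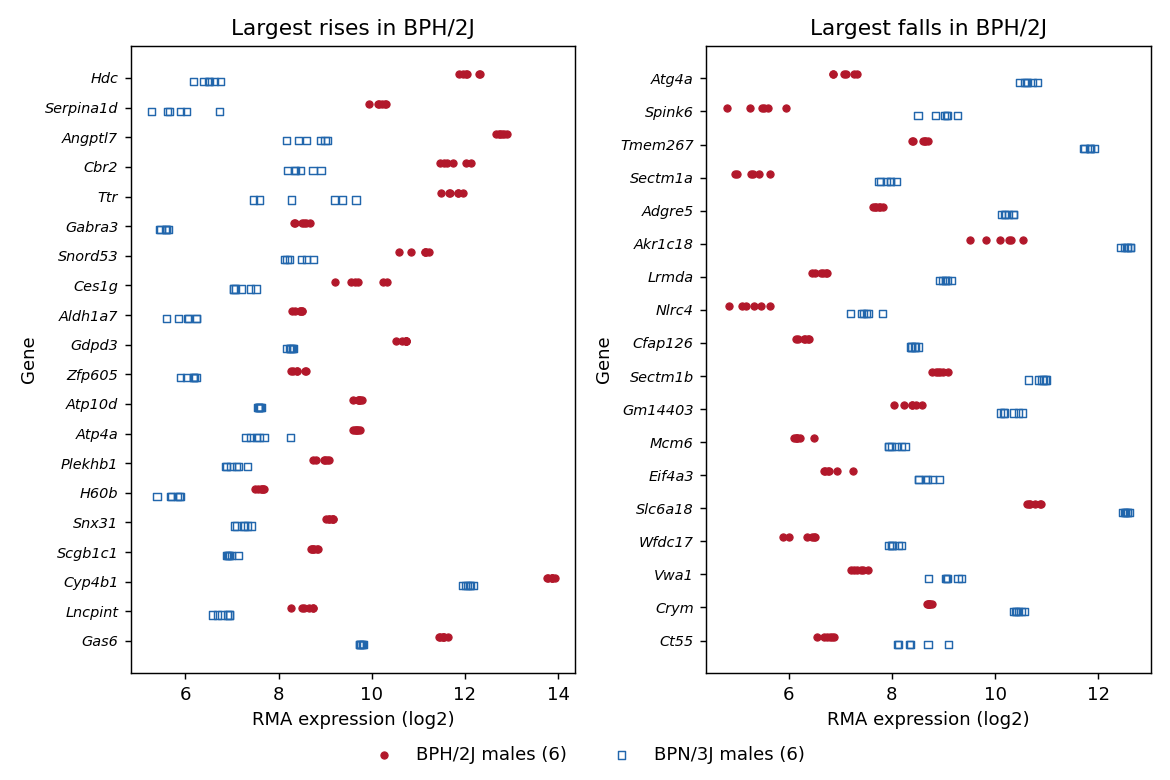
Log2 RMA expression of each male array for the genes with the largest rises (left) and falls (right) in BPH/2J kidneys among those past the Bonferroni threshold. Filled circles are the 6 BPH/2J arrays and open squares the 6 BPN/3J arrays; the groups do not overlap in any row, and Hdc has the widest gap, at 11.88 and above in BPH/2J males against 6.75 and below in BPN/3J males.

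Among the 20 largest falls was *Spink6*. This gene, which encodes a Kazal-type inhibitor of serine proteases, had 4.80, 5.51 and 5.94 in BPH/2J males, against 8.50, 9.04 and 9.27 in BPN/3J males. *Sectm1a* and *Sectm1b*, neighbouring genes whose products act on T cells, changed by −2.64 (standard error 0.108) and −1.96 (standard error 0.0658). *Nlrc4*, the inflammasome adaptor that responds to bacterial flagellin, was 4.85 to 5.63 in BPH/2J males, against 7.19 to 7.81 in BPN/3J males. *Adgre5*, the adhesion receptor CD97 of leukocytes, was 5.73-fold lower (7.63 to 7.83 in BPH/2J males, against 10.12 to 10.36 in BPN/3J males), and *Wfdc17*, a small whey acidic protein, was 3.38-fold lower. All 6 genes also had groups that did not overlap.

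*Atg4a*, a protease that trims the ubiquitin-like proteins of autophagosomes, had 2 probe sets of its own, which gave −3.56 and −3.29. The brighter had 6.86, 7.10 and 7.32 in BPH/2J males, against 10.47, 10.62 and 10.82 in BPN/3J males. *Tmem267*, a membrane protein, was 9.52-fold lower (8.39 to 8.71 in BPH/2J males, against 11.72 to 11.93 in BPN/3J males), and *Akr1c18*, which inactivates progesterone, was 5.50-fold lower (9.51 to 10.54 in BPH/2J males, against 12.44 to 12.62 in BPN/3J males). *Mcm6*, a subunit of the replicative helicase, fell by 1.85 and *Eif4a3*, a helicase of the exon junction complex, fell by 1.83. *Crym*, which binds thyroid hormone in the cytosol, fell by 1.72 with narrow groups (8.67 to 8.77 in BPH/2J males, against 10.35 to 10.56 in BPN/3J males), and *Vwa1*, a matrix protein of basement membranes, by 1.73. *Lrmda* (−2.41), *Cfap126* of motile cilia (−2.14), *Gm14403* (−1.95) and *Ct55* (−1.70) also fell. *1810037I17Rik* had 2 probe sets, which disagreed in size, at −1.92 and −0.45.

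Podocyte and vessel-wall genes stood mostly above the background share. Of 16 podocyte genes measured, 9 were higher in BPH/2J males and none was lower, with a list median of 0.23 against 0.00 for all genes. *Cdkn1c*, the cell cycle inhibitor that keeps podocytes quiescent, had 8.01, 8.09 and 8.13 in BPH/2J males, against 7.36, 7.52 and 7.74 in BPN/3J males (log2 fold change 0.54 (standard error 0.0552), Bonferroni-adjusted p = 0.0057). *Nphs1*, nephrin of the slit diaphragm, had 7.91, 7.96 and 8.01 in BPH/2J males, against 7.27, 7.70 and 7.92 in BPN/3J males, and these groups overlapped slightly. By a t-test with unequal variances 4 of the 16 were higher, and by one with pooled variance 8. *Wt1*, the transcription factor of podocytes, rose by 0.33 and *Plce1*, a phospholipase C, by 0.38. *Vegfa*, the growth factor that podocytes supply to glomerular capillaries, was 10.74 to 10.83 in BPH/2J males, against 10.67 to 10.87 in BPN/3J males (adjusted p = 0.968 in limma), and *Col4a4* of the glomerular basement membrane was −0.19 (adjusted p = 0.0685). In RNA of a whole organ, fewer or more cells of a type and less or more RNA per cell cannot be told apart, here and for every cell type below.

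Among 15 smooth muscle and pericyte genes of the vessel wall, 9 were higher and 1 was lower (median 0.25). The largest difference was in *Abcc9*, the sulfonylurea receptor subunit of the potassium channel that ATP closes in vessels, with 8.82, 8.96 and 9.10 in BPH/2J males, against 7.88, 8.05 and 8.24 in BPN/3J males (Bonferroni-adjusted p = 9.91e-05). *Kcnj8*, which encodes the pore of the same channel, rose by 0.27 (standard error 0.0675). *Abcc9* was the 1 gene of the list whose strain difference was unequal in the sexes. It was 0.13 in females, and the male minus female difference was 0.78 (adjusted p = 1.84e-06). *Rgs5*, a brake on G protein signalling in pericytes, rose by 0.46, and *Acta2* and *Myh11*, the actin and myosin of smooth muscle, by 0.44 and 0.43. The exception was *Lmod1*, a smooth muscle actin nucleator, at 5.65 to 6.05 in BPH/2J males, against 6.18 to 6.41 in BPN/3J males, groups that did not overlap.

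Endothelial genes moved less as a group. Of 17 measured, 3 were higher and 14 were not called (median 0.07). The adhesion molecule *Pecam1* was 9.67 to 9.79 in BPH/2J males, against 9.35 to 9.48 in BPN/3J males, the nitric oxide synthase *Nos3* rose by 0.32 and the plasminogen activator *Plat* by 0.43. *Cdh5*, the cadherin of endothelial junctions, and *Kdr*, the VEGF receptor, were 0.03 and 0.08, with adjusted p of 0.829 and 0.264.

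The early proximal tubule changed little. Of 20 genes, none was higher and 3 were lower, against 8.14% of all genes, and the list ranged from −0.24 to 0.16. The organic anion transporter *Slc22a6* was 12.78 to 12.92 in BPH/2J males, against 13.02 to 13.20 in BPN/3J males, and the glucose transporter *Slc2a2* and the cubilin partner *Amn* both fell by 0.17. The sodium-glucose transporter *Slc5a2* (0.04), *Slc34a1* (0.03) and megalin, *Lrp2* (−0.02), did not pass.

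In the straight proximal segment, which in mice is the most sex-dependent, 3 of 12 genes were higher and 3 lower. *Slc6a18*, a glycine and neutral amino acid transporter of the brush border, had the largest difference in the nephron segment lists, with 10.61, 10.72 and 10.89 in BPH/2J males, against 12.47, 12.54 and 12.60 in BPN/3J males (3.46-fold lower, Bonferroni-adjusted p = 9.82e-10). The organic anion transporter *Slc22a7* fell by 0.47 and the sodium-glucose transporter *Slc5a1* by 0.26, while the transporters *Slco1a6* (0.57) and *Slc22a13* (0.27) and the oxysterol hydroxylase *Cyp7b1* (0.36) rose. *Slc7a13*, the cystine transporter of this segment, was 13.39 to 13.47 in BPH/2J males, against 13.31 to 13.50 in BPN/3J males. Genes of this segment thus differed in direction, and 6 of the 12 had an unequal strain difference in males and females.

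A pair of claudins of the thick ascending limb moved in opposite directions. *Cldn16* and *Cldn19* encode proteins that together form the paracellular pathway for calcium and magnesium. *Cldn16* had 10.11, 10.20 and 10.28 in BPH/2J males, against 9.50, 9.69 and 9.80 in BPN/3J males (log2 fold change 0.52 (standard error 0.0577), Bonferroni-adjusted p = 0.0168), and *Cldn19* had 8.91, 9.07 and 9.20 in BPH/2J males, against 9.32, 9.36 and 9.45 in BPN/3J males (−0.30, Benjamini-Hochberg adjusted p = 0.00132). Neither pair of groups overlapped. *Tmem207*, a membrane protein whose gene lies beside *Cldn16*, rose by 0.52, the calcium-sensing receptor *Casr* by 0.22 and the growth factor precursor *Egf* by 0.20. *Umod* (0.07) and the sodium-potassium-chloride transporter *Slc12a1* (−0.05) did not pass, and over the list 5 of 12 were higher and 1 was lower.

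In the distal convoluted and connecting tubule, 4 of 14 genes were lower and 1 was higher. *Slc12a3*, the thiazide-sensitive sodium-chloride transporter, had 12.07, 12.26 and 12.38 in BPH/2J males, against 12.49, 12.54 and 12.65 in BPN/3J males (log2 fold change −0.33 (standard error 0.0557), Benjamini-Hochberg adjusted p = 0.00101). *Pvalb*, the calcium buffer of the early part of the segment, fell by 0.33. It is also a skeletal muscle gene, and *Acta1*, the actin of that tissue, fell by 0.21, whose part in this value was not tested. *Cul3*, the ligase scaffold that turns over WNK kinases, fell by 0.17 and klotho, *Kl*, by 0.12. *Calb1*, the calcium buffer of the later part, was 12.33 to 12.56 in BPH/2J males, against 11.98 to 12.26 in BPN/3J males, and rose by 0.28. The kinase *Wnk4* was 0.08 (adjusted p = 0.453).

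The collecting duct held small rises. In principal cells 3 of 14 genes were higher and 1 was lower. The risers were the epithelial sodium channel subunits *Scnn1g* (10.36 to 10.74 in BPH/2J males, against 10.02 to 10.31 in BPN/3J males) and *Scnn1b* (9.73 to 10.07 in BPH/2J males, against 9.39 to 9.78 in BPN/3J males) and the mineralocorticoid receptor *Nr3c2* (0.28). The water channel *Aqp4* fell by 0.18, and *Aqp2*, which vasopressin regulates, was 0.01 (adjusted p = 0.952). Of 17 genes of the acid- and base-secreting intercalated cells, 9 were higher and none was lower (median 0.22). The ammonia transporter *Rhbg* had 10.73, 10.80 and 10.93 in BPH/2J males, against 10.003, 10.07 and 10.14 in BPN/3J males, and *Oxgr1*, the receptor for 2-oxoglutarate, rose by 0.62 (standard error 0.0576). The proton pump subunit *Atp6v0d2* was 10.53 to 10.81 in BPH/2J males, against 10.24 to 10.48 in BPN/3J males, and the anion exchanger *Slc4a1*, also a red cell gene, rose by 0.22.

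**Figure D2:**
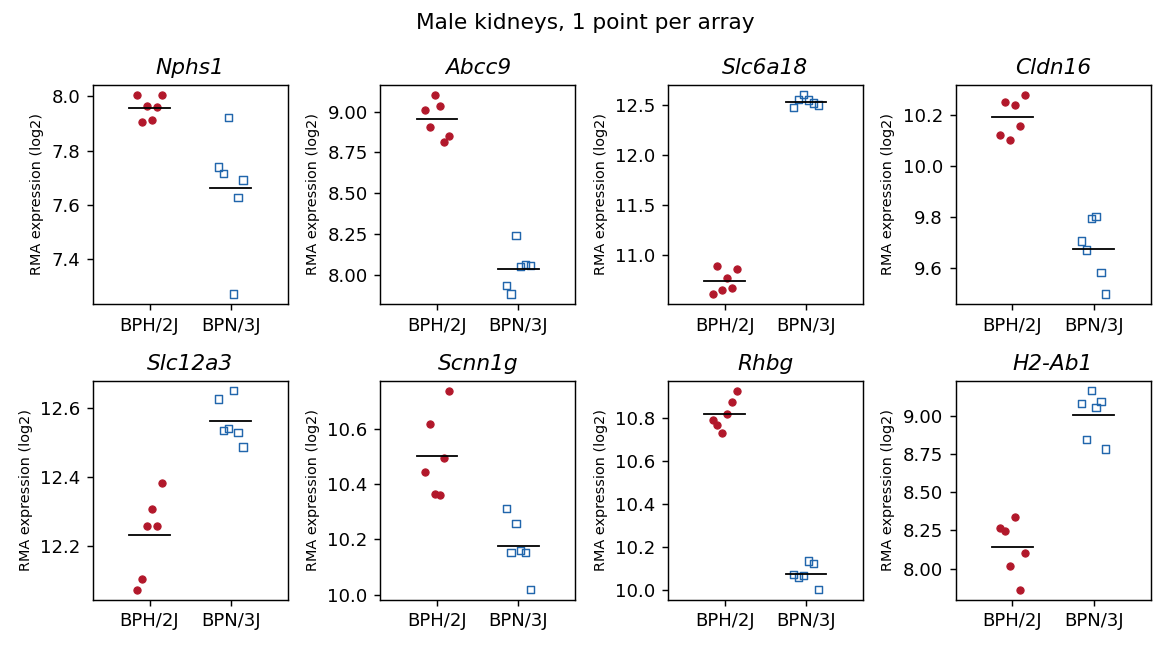
Log2 RMA expression of each male array for 8 genes of the glomerulus, vessel wall, nephron and immune cells, BPH/2J (filled circles) left of BPN/3J (open squares), with a short bar at each group mean. Rhbg and Abcc9 are higher in all 6 BPH/2J arrays and H2-Ab1 is lower in all 6, while the Nphs1 groups touch.

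**Figure D3:**
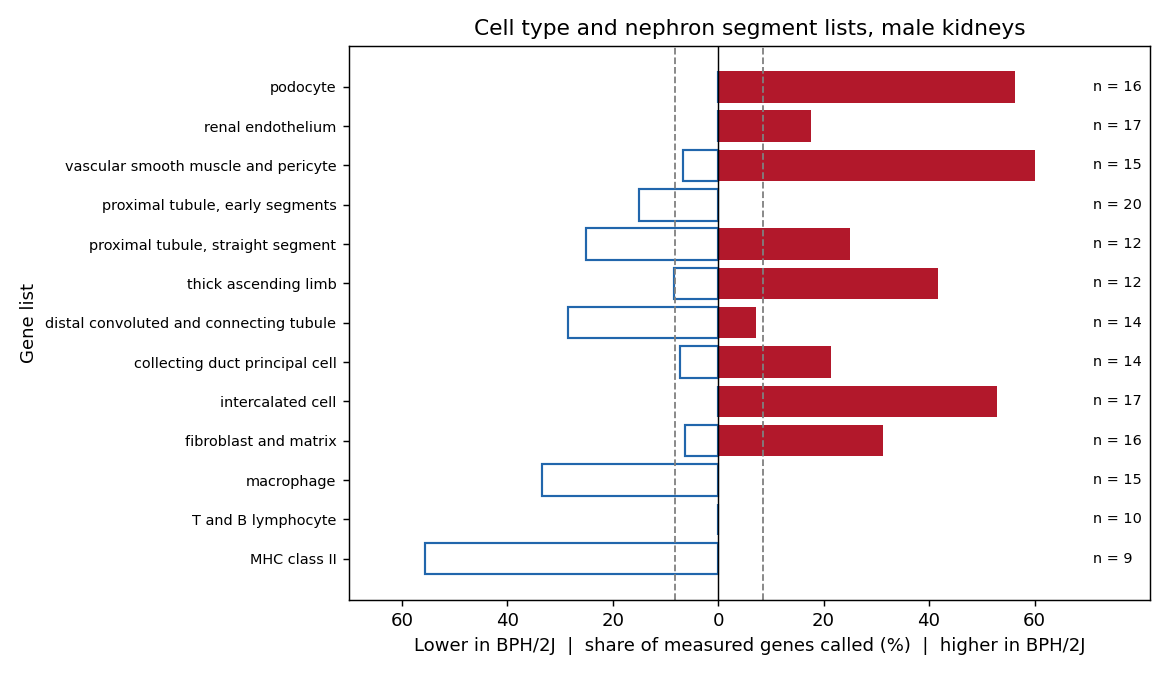
Share of measured genes called higher (right, filled) or lower (left, open) in BPH/2J males at a Benjamini-Hochberg adjusted p under 0.05, for lists of cell types and nephron segments, with the number of genes beside each bar. Dashed lines mark the shares over all genes, 8.58% higher and 8.14% lower; podocyte, vessel-wall and intercalated cell lists have the longest filled bars.

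Matrix and immune genes differed in direction. Of 16 fibroblast and matrix genes, 5 were higher and 1 was lower. The collagen-binding proteoglycan *Fmod* had 8.05, 8.25 and 8.36 in BPH/2J males, against 6.88, 7.13 and 7.25 in BPN/3J males (Bonferroni-adjusted p = 1.12e-05). The collagen crosslinkers *Loxl2* and *Lox* rose by 0.61 and 0.58, and the proteoglycan *Dcn* by 0.36, while *Serpinh1*, the chaperone of newly made collagen, fell by 0.54. None of 15 macrophage genes was higher and 5 were lower, among them the growth factor receptor *Csf1r* (9.61 to 9.87 in BPH/2J males, against 9.96 to 10.12 in BPN/3J males), the macrophage adhesion receptor *Adgre1* (−0.34), the complement gene *C1qb* (−0.36) and *Ms4a7* (−0.34). *Cd68* of macrophage lysosomes was −0.01 (adjusted p = 0.969). None of 10 T and B cell genes was called by limma with Benjamini-Hochberg adjustment or by a t-test with unequal variances, and 1 had an unadjusted p under 0.05 in limma. Without BPH/2J male 4 there were 2 lower, and without BPN/3J male 6 there was 1 higher.

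Genes of MHC class II, which present antigen to helper T cells, fell in 5 of 9 cases with no rise (median −0.48). *H2-Ab1* had 7.86, 8.17 and 8.34 in BPH/2J males, against 8.78, 9.07 and 9.17 in BPN/3J males (Bonferroni-adjusted p = 0.00628). *H2-Aa* (−0.52), *H2-Eb1* (−0.57), *H2-DMa* (−0.60) and the invariant chain *Cd74* (−0.48) had groups that did not overlap either. The fall of macrophage genes, which occurred in the same arrays, was smaller per gene, at −0.36 to −0.32 for those called, and its part here was not tested. Of 14 class I genes 4 were lower, including *B2m*, the light chain (−0.26). Among interferon-stimulated genes 2 of 25 were higher and 4 lower, against 8.58% higher and 8.14% lower over all genes. The largest difference was in *Xaf1*, an inducer of apoptosis (−0.76 (standard error 0.0891)). Of these genes 2 were lower without BPH/2J male 6 or BPN/3J male 1 or 5. In complement, *Cd55*, which disarms C3 convertases on cell surfaces, rose by 1.29 and *C4a* was 2.83-fold lower, a value that its near copy *C4b* may share.

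Mast cells store histamine, so their other genes were set beside *Hdc*. The protease *Cpa3* was 5.33 to 5.82 in BPH/2J males, against 5.09 to 5.42 in BPN/3J males (log2 fold change 0.32), with overlapping groups. The protease *Mcpt4* was 5.11 to 5.40 in BPH/2J males, against 4.72 to 5.05 in BPN/3J males (0.33). Both passed at the Benjamini-Hochberg level, but at values within or near those of *Xist* in males (4.61 to 5.75), close to the floor of the arrays. The receptor *Kit* was 0.10 (adjusted p = 0.512). The gap in *Hdc* was 5.60 in the same arrays, and its relation to these genes was not tested.

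Genes that answer glucocorticoids were mostly lower where called. *Hsd11b1*, which regenerates active corticosterone, had 10.97, 11.18 and 11.45 in BPH/2J males, against 11.59, 11.85 and 12.07 in BPN/3J males (−0.67, Benjamini-Hochberg adjusted p = 0.000219). *Fkbp5*, a chaperone induced by glucocorticoids, had 9.32, 9.43 and 9.62 in BPH/2J males, against 10.11, 10.34 and 10.50 in BPN/3J males (−0.87, Bonferroni-adjusted p = 0.0011). Of 11 genes in this list 4 were lower, the others being *Tsc22d3* (−0.35) and *Zbtb16* (−0.40), both glucocorticoid targets. *Per1*, another such target, was −0.04 (adjusted p = 0.856), and the adrenal cortex genes ranged widely within both groups, as given above. *Hsd17b2*, which oxidises testosterone and oestradiol to weaker forms, rose by 0.96 (9.58 to 9.96 in BPH/2J males, against 8.54 to 8.93 in BPN/3J males). *Kap*, an androgen-induced kidney protein, was 13.54 to 13.62 in BPH/2J males, against 13.45 to 13.63 in BPN/3J males, both near the top of the array scale. *Slc7a12*, an amino acid transporter of the proximal tubule, rose by 1.33, and *Odc1*, the first enzyme of polyamine synthesis, fell by 0.61.

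Microsomal fatty acid hydroxylases of the Cyp4 family rose for 4 of 10 and fell for 1. *Cyp4a14* had 7.41, 8.04 and 8.91 in BPH/2J males, against 5.98, 6.30 and 6.74 in BPN/3J males, with a wide range in both strains (log2 fold change 1.73 (standard error 0.211), Bonferroni-adjusted p = 0.0461). *Cyp4a31* was 12.16 to 12.48 in BPH/2J males, against 10.69 to 11.20 in BPN/3J males, and *Cyp4b1* was 13.77 to 13.93 in BPH/2J males, against 11.95 to 12.17 in BPN/3J males. These 3 lie in 1 gene cluster, and members of it are similar in sequence. *Cyp4a12a*, which forms 20-HETE in male mice, was 13.52 to 13.64 in BPH/2J males, against 13.40 to 13.62 in BPN/3J males (adjusted p = 0.867). In other P450 families, the epoxygenase relatives *Cyp2j6* and *Cyp2j9* rose by 0.46 and 0.42, and *Cyp2b10* was 5.42 to 5.99 in BPH/2J males, against 6.17 to 7.82 in BPN/3J males, and fell by 1.05.

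Second-phase and hydrolytic drug enzymes moved both ways. *Ugt2b37*, a glucuronosyltransferase, rose by 1.02 and the flavin oxygenase *Fmo2* by 0.43, whereas *Fmo5* was 10.76 to 11.00 in BPH/2J males, against 11.59 to 11.98 in BPN/3J males, and fell by 0.83. The carboxylesterase *Ces1g* had 9.21, 9.68 and 10.33 in BPH/2J males, against 7.03, 7.14 and 7.51 in BPN/3J males, and the related *Ces1e* and *Aadac* fell by 0.33 and 0.73. Glutathione and antioxidant enzymes were higher for 11 of 33 and lower for 2 (median 0.06). *Mgst3*, a microsomal glutathione transferase, was 2.09-fold higher (10.81 to 10.96 in BPH/2J males, against 9.66 to 9.96 in BPN/3J males), with *Gsto1* (0.57), *Gstt2* (0.51) and *Gsta3* (0.46) next in size. *Gstk1* of mitochondria and peroxisomes (−0.55) and *Nnt*, which makes mitochondrial NADPH (−0.35), were the falls. *Aldh1a7* rose while *Aldh1a1*, its close relative that makes retinoic acid, was 7.92 to 8.87 in BPH/2J males, against 9.21 to 9.80 in BPN/3J males, and fell by 1.21.

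Transporters of organic ions were higher for 7 of 26 and lower for 4. *Slco1a4* had 6.46, 6.56 and 6.89 in BPH/2J males, against 5.40, 5.49 and 5.62 in BPN/3J males (1.10, Bonferroni-adjusted p = 2.21e-05). The efflux pump *Abcc2* rose by 0.31 and *Slc47a1*, which extrudes cations into urine, fell by 0.33. Among 29 amino acid and peptide carriers, 3 rose and 6 fell, against 8.58% higher and 8.14% lower over all genes. The peptide transporter *Slc15a2* was 10.95 to 11.11 in BPH/2J males, against 10.07 to 10.27 in BPN/3J males, and the glutamine transporter *Slc38a3* rose by 0.53. *Slc6a13*, a carrier of GABA and taurine, fell by 0.65 and *Slc7a5*, of large neutral amino acids, by 0.55. In the monocarboxylate family *Slc16a5* was 6.44 to 7.37 in BPH/2J males, against 8.55 to 8.70 in BPN/3J males, and *Slc16a14* 11.21 to 11.52 in BPH/2J males, against 12.09 to 12.38 in BPN/3J males.

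Fatty acid oxidation genes were mostly higher where they were called. Of 33 genes, 14 were higher and 3 lower (median 0.11, 26 of 33 above 0). *Acox2*, the peroxisomal oxidase of branched chains and bile acid precursors, had 10.72, 10.93 and 10.96 in BPH/2J males, against 9.36, 9.52 and 9.57 in BPN/3J males (2.62-fold higher, Bonferroni-adjusted p = 1.59e-08). *Cpt2*, which hands long chains to the mitochondrial matrix, rose by 0.39, the isomerase *Eci1* by 0.57 and the peroxisomal *Ehhadh* by 0.26. The acyl-CoA thioesterases *Acot3* and *Acot1* rose by 0.67 and 0.63, and *Pdk4*, which closes pyruvate entry to the citrate cycle, was 9.39 to 10.22 in BPH/2J males, against 8.67 to 9.42 in BPN/3J males. *Acaa2*, the last thiolase of the mitochondrial spiral, went the other way (−0.42). *Ppara*, the receptor that controls many of these genes, was −0.10 (adjusted p = 0.521).

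The respiratory chain was near background, with 3 of 36 subunits higher and 1 lower, and *Sdha* and *Sdhb* of succinate dehydrogenase rose by 0.20 and 0.16. *Pcx*, pyruvate carboxylase, was 11.60 to 11.77 in BPH/2J males, against 11.99 to 12.17 in BPN/3J males, and *Ldha*, lactate dehydrogenase, was 12.80 to 12.92 in BPH/2J males, against 12.28 to 12.46 in BPN/3J males. *Hk2*, an inducible hexokinase, fell by 0.60 with groups that overlapped (5.98 to 6.25 in BPH/2J males, against 6.22 to 7.43 in BPN/3J males). *Acsm1*, which activates medium-chain acids for glycine conjugation, had 10.33, 10.42 and 10.51 in BPH/2J males, against 11.54, 11.61 and 11.67 in BPN/3J males (−1.18, Bonferroni-adjusted p = 7.98e-09), and *Gamt*, the last step of creatine synthesis, rose by 0.37. The glycine cleavage genes *Gldc* and *Amt* rose by 0.47 and 0.26.

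Genes of cholesterol synthesis and SREBP targets moved both ways. Of 20 genes, 8 were lower and 4 higher (median −0.13). *Hmgcs1*, the first committed enzyme, had 11.34, 11.44 and 11.60 in BPH/2J males, against 12.04, 12.20 and 12.26 in BPN/3J males (Bonferroni-adjusted p = 3.78e-05), and *Insig1*, the membrane protein that holds SREBP back, fell by 0.63. The higher ones included *Idi1* (11.19 to 11.48 in BPH/2J males, against 10.47 to 10.73 in BPN/3J males), *Cyp51* (0.43) and *Sqle* (0.36), the isopentenyl isomerase, the lanosterol demethylase and squalene epoxidase. The arrays of *Hmgcs1*, *Idi1* and *Cyp51* did not overlap between strains.

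**Figure D4:**
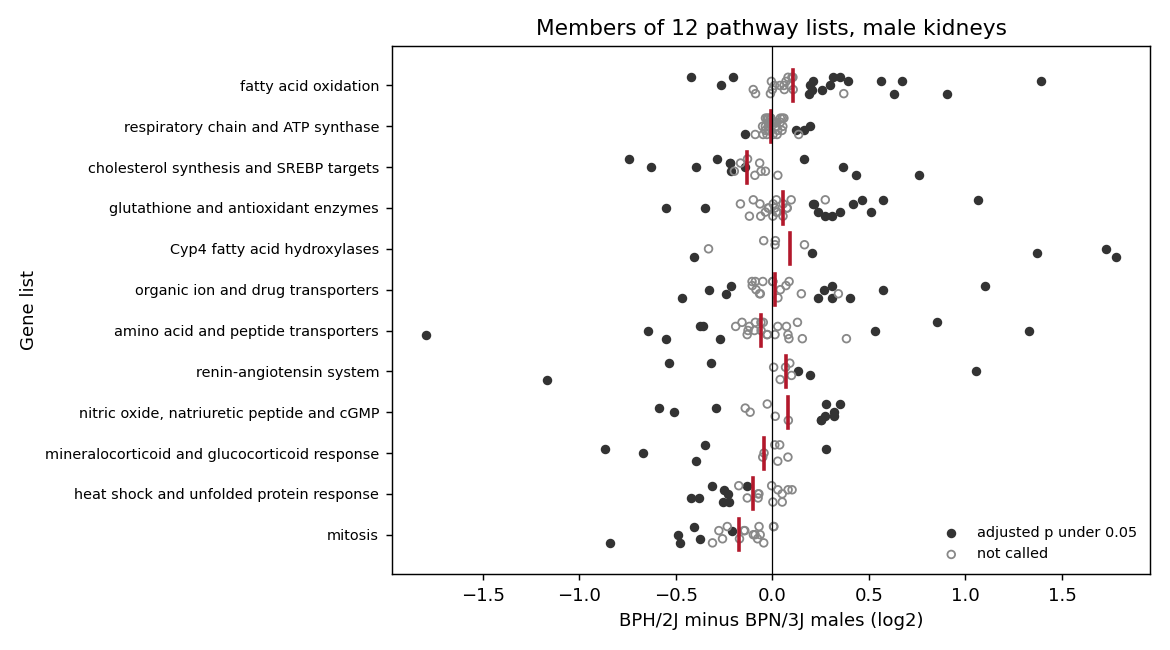
Log2 difference between BPH/2J and BPN/3J males for each measured gene of 12 lists. Filled points passed a Benjamini-Hochberg adjusted p under 0.05 and open points did not, the short bar is the list median, and fatty acid oxidation has 14 filled points above 0 while heat shock and unfolded protein response has 8 below 0.

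Genes of blood pressure hormones fell on both sides. *Mme*, neprilysin, which degrades natriuretic peptides and angiotensins, had 11.60, 11.65 and 11.75 in BPH/2J males, against 10.48, 10.60 and 10.74 in BPN/3J males (2.08-fold higher, Bonferroni-adjusted p = 2.53e-07). *Mas1*, a receptor for short angiotensin peptides, had 5.40, 5.61 and 5.77 in BPH/2J males, against 6.59, 6.73 and 7.02 in BPN/3J males (2.25-fold lower). *Enpep*, the aminopeptidase that degrades angiotensin II, fell by 0.53 and the precursor *Agt* by 0.32, while *Ace* was 0.07 (adjusted p = 0.33). Over the list 3 of 11 were higher and 3 lower. The higher count was 1 without BPH/2J male 1, 2 or 5 or BPN/3J male 2, 4, 5 or 6, and with the replicate number as a block. Renin itself was not analysed here.

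The peptide *Edn3* was 7.80 to 8.15 in BPH/2J males, against 6.87 to 7.13 in BPN/3J males, and rose by 0.97, while *Edn1*, the vasoconstrictor of endothelium, was −0.26 (adjusted p = 0.0631). In the nitric oxide and natriuretic peptide pathways 7 of 15 were higher and 3 lower. The guanylate cyclase subunit *Gucy1a1* and the receptor *Npr2* rose by 0.32 and 0.27. *Pde5a*, the phosphodiesterase that ends the cGMP signal, fell by 0.59, and *Corin*, the protease that activates atrial natriuretic peptide, was 7.16 to 7.59 in BPH/2J males, against 7.78 to 8.14 in BPN/3J males, and fell by 0.51. *Kcnk1*, a leak potassium channel, was 8.89 to 9.22 in BPH/2J males, against 10.41 to 10.60 in BPN/3J males, a 2.56-fold fall.

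Injury markers were mixed. *Clu* and *Vim*, which rise in damaged tubules, were higher by 0.52 and 0.39, and *Havcr1*, the kidney injury molecule, by 0.30 with overlapping groups (10.12 to 10.70 in BPH/2J males, against 9.95 to 10.29 in BPN/3J males). Of 16 injury genes 5 were higher, and 3 without BPH/2J male 1, 2, 5 or 6 or BPN/3J male 1, 4 or 6. *Sox9* fell by 0.48 and *Lcn2* was −0.09 (adjusted p = 0.638). In the growth factor axis the binding protein *Igfbp1* was 7.41 to 8.20 in BPH/2J males, against 6.92 to 7.12 in BPN/3J males, and rose by 0.85, and *Igfbp4* fell by 0.34. Of 21 mitosis genes 6 fell and none rose. The condensin subunit *Ncapg* had 4.56, 4.89 and 5.18 in BPH/2J males, against 5.55, 5.74 and 6.02 in BPN/3J males. Its BPH/2J values lay near those of *Xist* in males (4.61 to 5.75), close to the floor of the arrays. *Bub1b* of the spindle checkpoint fell by 0.48, with BPH/2J values of 5.55 to 5.73 that also lay near this floor. The proliferation marker *Mki67* and the cyclin *Ccnb2* fell by 0.41 and 0.49 with groups that overlapped. *Dna2*, a nuclease of replication and repair, rose by 0.85, opposite to *Mcm6*.

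Of 19 metal ion genes 2 were higher and 3 lower (median 0.00), against 8.58% higher and 8.14% lower over all genes. *Cp*, ceruloplasmin, the copper ferroxidase of plasma, was 10.05 to 10.16 in BPH/2J males, against 9.19 to 9.49 in BPN/3J males, and *Atp7b*, the pump that loads it with copper, was 6.56 to 6.94 in BPH/2J males, against 7.70 to 7.92 in BPN/3J males. The zinc and manganese importer *Slc39a8* rose by 0.42. Eicosanoid genes rose for *Pla2g5*, a secreted phospholipase (10.45 to 10.79 in BPH/2J males, against 9.02 to 9.71 in BPN/3J males), and *Cysltr2*, a leukotriene receptor (1.25), and fell for *Ltc4s*, leukotriene C4 synthase (−0.60). The BPN/3J values of *Cysltr2* were 4.235 to 4.935, close to the floor of the arrays. Among protease inhibitors *Serpina1f* rose by 1.17 and *Serpinb8* was 7.80 to 8.24 in BPH/2J males, against 9.29 to 9.90 in BPN/3J males. Of 9 fat genes 2 were lower and none higher, with 5 of 9 differences above 0 and a median of 0.32. *Pparg*, the master regulator of fat cells, fell by 0.75 and leptin, *Lep*, by 0.83, and *Adipoq*, a defining gene of fat cells, was 8.76 to 9.54 in BPH/2J males, against 7.58 to 9.08 in BPN/3J males (adjusted p = 0.15).

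Immediate early and clock genes were close to background. The immediate early gene *Fos* was −0.04 (adjusted p = 0.847) and *Junb* rose by 0.26, the only rise among 20. In the clock *Nr1d2* and *Tef* fell by 0.41 and 0.21 and *Cry2* rose by 0.25, each with overlapping groups.

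Genes of heat shock and the unfolded protein response fell in 8 of 20 cases with no rise (median −0.10). The count was 5 without BPH/2J male 6 or BPN/3J male 1, 3, 5 or 6, and with the replicate number as a block. In the unfolded protein response, sensors in the endoplasmic reticulum switch on chaperone genes through ATF6 and XBP1, which act at promoters that hold the endoplasmic reticulum stress element. *Dnajb1*, a cytosolic cochaperone, had 8.31, 8.59 and 8.74 in BPH/2J males, against 8.87, 8.97 and 9.12 in BPN/3J males (−0.42). *Sdf2l1* fell by 0.38, the factors *Atf4* and *Xbp1* by 0.31 and 0.26, *Creld2*, a secretory-pathway protein induced by stress, by 0.25 and the calcium-binding chaperone *Calr* by 0.13. *Hspa5*, the main chaperone of the compartment (BiP), was 12.24 to 12.46 in BPH/2J males, against 12.22 to 12.54 in BPN/3J males (adjusted p = 0.489).

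The stress element was searched as CCAAT, any 9 bases and CCACG on both strands of the 250 bases before each start site in RefSeq promoters (GRCm38.p6). It was found in 0.13% of 27025 genes, and in 5 of the 16 measured list members with a promoter in the table. Those of 2 genes that fell and of *Hspa5*, which did not pass, are shown to set a shared element beside unequal values, with the element or its reverse complement in capitals.
Creld2, GRCm38.p6 chr15:88819396-88819645, plus strand: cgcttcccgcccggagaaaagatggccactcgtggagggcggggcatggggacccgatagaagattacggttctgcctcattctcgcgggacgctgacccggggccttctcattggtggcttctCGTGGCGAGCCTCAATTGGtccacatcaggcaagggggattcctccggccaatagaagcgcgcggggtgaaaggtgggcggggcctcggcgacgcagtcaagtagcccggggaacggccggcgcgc
Calr, GRCm38.p6 chr8:84846932-84847181, minus strand: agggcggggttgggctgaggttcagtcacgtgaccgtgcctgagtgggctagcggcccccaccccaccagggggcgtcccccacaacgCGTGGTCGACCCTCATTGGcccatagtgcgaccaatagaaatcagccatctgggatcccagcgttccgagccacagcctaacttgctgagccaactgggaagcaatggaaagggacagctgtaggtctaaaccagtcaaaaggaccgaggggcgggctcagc
Hspa5, GRCm38.p6 chr2:34771840-34772089, plus strand: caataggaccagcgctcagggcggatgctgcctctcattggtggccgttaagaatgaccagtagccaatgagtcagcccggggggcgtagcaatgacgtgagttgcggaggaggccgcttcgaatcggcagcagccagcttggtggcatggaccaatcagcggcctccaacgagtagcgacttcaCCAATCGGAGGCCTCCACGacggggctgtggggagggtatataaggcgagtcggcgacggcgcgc
The match in *Hspa5* is on the strand of the gene, 46 bases before its start site, and those in *Creld2* and *Calr* are on the opposite strand, 107 and 143 bases before. A match of letters is a description and no sign of binding in these kidneys.

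The arrays also carried 307 microRNA genes, whose probe sets read the gene and not one mature arm. At the Benjamini-Hochberg level 12 of the 307 were higher and 1 was lower, both smaller shares than over all genes (8.58% and 8.14%), and 0 passed Bonferroni. RefSeq (GRCm38.p6) gave mature sequences for 277 of them. Those of the 1 fall and of 4 rises are shown, with the seed (bases 2 to 8), which chooses the target, in capitals.
miR-30a-5p: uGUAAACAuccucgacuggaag
miR-30c-5p: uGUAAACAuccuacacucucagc
miR-218-5p: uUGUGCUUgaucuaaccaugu
miR-26a-5p: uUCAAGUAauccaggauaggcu
miR-181a-5p: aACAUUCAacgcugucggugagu
*Mir30a* was the fall, at 5.24, 5.42 and 5.49 in BPH/2J males, against 5.49, 5.64 and 5.79 in BPN/3J males, groups apart by a narrow margin (log2 fold change −0.24, standard error 0.0604, Benjamini-Hochberg adjusted p = 0.0165). *Mir30c-2*, whose product has the same seed and whose gene lies on the same chromosome, was 5.90, 6.43 and 6.58 in BPH/2J males, against 5.61, 5.85 and 6.18 in BPN/3J males (0.44, adjusted p = 0.0242). These 2 genes differed in direction. *Mir218-1* had the largest difference, at 6.05, 6.60 and 6.82 in BPH/2J males, against 5.07, 5.63 and 5.79 in BPN/3J males (0.98, adjusted p = 0.000304). *Mir26a-1* was higher by 0.38 and *Mir181a-2* by 0.43, with groups that did not overlap. For scale, *Xist* read 4.61 to 5.75 in males. The values of *Mir30a*, *Mir26a-1* and *Mir181a-2* lay within or near that range, close to the floor of the arrays.

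The strain difference of males was set beside that of females. Of the 483 genes called in males at the Bonferroni level, 464 had the same sign in females, and 413 of them also passed in females at the Benjamini-Hochberg level, where 9.05% of all genes were higher and 6.89% lower, together 15.9%. The male and female strain differences were unequal for 123 of the 483 by the interaction of strain and sex (adjusted p under 0.05, against 2.23% of all genes, 1.1% with a positive and 1.13% with a negative difference). Of the 123, the difference was larger in males for 112 and smaller for 11. The 483 were chosen by their male difference, which is part of the interaction. That choice by itself raises both the share and the count larger in males, so neither can be read as a measure of dependence on sex. *Hdc* was 1.17 in females, a male minus female difference of 4.43 (adjusted p = 1.35e-13), and *Serpina1d* was 1.52 (2.78). The male difference was also the larger for *Acox2* (0.21 in females, interaction 1.18), *Cd55* (−0.05, 1.34), *Mas1* (−0.25, −0.91) and *Ct55* (0.03, −1.73). Liver transcripts were uneven among the females. The hepatocyte mean was 6.31 to 9.45 in BPH/2J females, against 6.45 to 11.78 in BPN/3J females, of which replicates 2 and 5 had the highest, 11.49 and 11.78. In a comparison added after the data were seen, without these 2 arrays, *Ces1g* was 0.40 in females, against −0.18 with them, and its male minus female difference was 2.17, against 2.75. *Slco1a4* was 0.18, against −0.27 with them, with a male minus female difference of 0.92, against 1.37. Their interaction passed in both fits (adjusted p = 0.000472 and 0.00438 without the 2 arrays, and 0.000978 and 0.019 with them). *Serpina1d* was 2.13 in females without the 2 arrays, against 1.52 with them. Its male minus female difference was then 2.18, against 2.78 (interaction in limma, adjusted p = 0.00124 without the 2 arrays).

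Beyond the 483 genes, *Slc22a26*, an organic anion transporter, was 0.42 in males and −1.35 in females, and *Cyp2d12* was 1.32 and −0.19. Besides *Ct55*, the largest negative male minus female differences were in genes with a positive strain difference in females. *Ucp1*, the uncoupling protein of brown fat, was 6.29 to 8.27 in BPH/2J males, against 6.34 to 8.49 in BPN/3J males (−0.08), and its strain difference was 3.50 in females. The mean of the 9 fat genes, *Ucp1* included, was 8.66 to 9.56 in BPH/2J females, against 7.77 to 8.62 in BPN/3J females (4 of 9 higher, median difference 0.61), and its part in the *Ucp1* value was not tested. *Scrg1* was 0.00 in males and 3.19 in females, *Inmt*, a methyltransferase of indoles, 0.16 and 2.33, and *Cndp1*, a dipeptidase of carnosine, −0.45 and 1.23. Of 16 androgen-regulated and sex-biased kidney genes 7 had an unequal difference, against 2.23% of all genes. Of 16 podocyte and 17 intercalated cell genes 0 had, which in lists of this size is near the share over all genes. The androgen-regulated and sex-biased list was drawn up for sex differences, with earlier results of these data known. Its share therefore cannot be read as a test of dependence on sex.

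**Figure D5:**
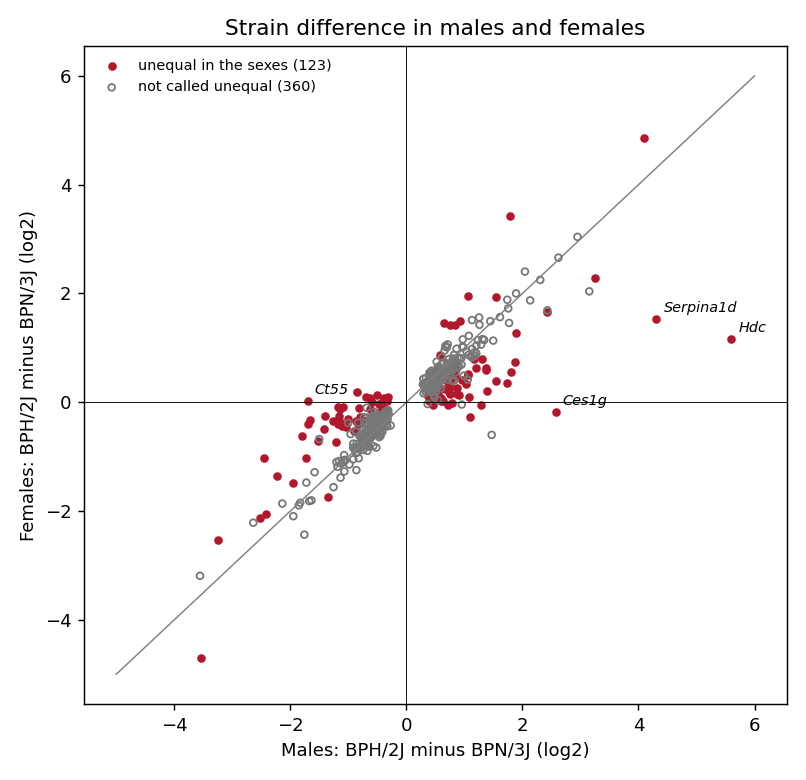
Strain difference, BPH/2J minus BPN/3J in log2 units, of males on the horizontal and of females on the vertical axis for the 483 genes called in males at the Bonferroni level. Filled points are the 123 with an unequal difference by the interaction of strain and sex, the line marks equal differences, and Hdc lies at 5.60 in males and 1.17 in females.

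By chromosome, the share of genes called at the Bonferroni level ran from 1.26% on the X chromosome, 9 of 715, to 4.61% on chromosome 4, 51 of 1106, against 2.57% over all genes. Chromosome 4 carries the Cyp4 genes above, *Angptl7* and *Vwa1*. On chromosome 11, which holds *Sectm1a*, *Sectm1b*, *Eif4a3* and *Wfdc17*, 31 genes were lower and 12 higher, and on chromosome 5 there were 4 lower and 15 higher.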

How the data were processed

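Total RNA of whole kidneys, integrity above 8 by the study's methods, was hybridised to Affymetrix Mouse Gene 1.0 ST arrays. The authors normalised them with RMA, which corrects background, quantile-normalises and summarises probes, and deposited log2 values; neither the RMA version nor the genome build is stated (not given in the sources used here). No further normalization was applied to these log2 values in the main analysis. Scanner intensities were not analysed here. The 6 arrays per group limit precision.

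BPH/2J and BPN/3J males were compared with limma 3.58.1 in R 4.3.3 over all 28853 probe sets. The methods selected by a two-sided t-test with Bonferroni correction, whose variance form is not stated, so both forms were run as alternatives. A gene was represented by its single-symbol probe set with the highest mean in males, and its call was adjusted over all probe sets. Sexes were compared by the strain-by-sex interaction over 24 arrays. The members, gene lists and tests were chosen with earlier results of these data known. Named genes were the 20 largest rises and falls, the 5 largest interactions each way, the leading called members of each list and its defining members. The fit was tested on simulated data. Alternatives covered the test, threshold, dim probe sets, normalization, samples, variance model, replicate block, and liver and adrenal covariates. Leaving out BPN/3J females 2 and 5 was added after the data were seen. Nothing says that mice shared litters. A gene that overlaps or copies another may share its probe signal.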

Additional observations from a re-analysis of the deposited data

Results flagged for a closer look

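In groups of 6 arrays, a highest or lowest array was marked when its gap to the nearest other array exceeded Dixon's limit as a share of the group's range, which chance alone does in about 1 of 20 groups, and 29 of 448 groups were marked. The lowest of the BPH/2J males stood apart for *Acox2* (10.72), *Atf4* (7.89), *Atp7b* (6.56), *Ces1e* (9.87), *Gdpd3* (10.52), *Hk2* (5.98), *Pdk4* (9.39), *Slc6a13* (10.85), *Sox9* (5.56) and *Sqle* (10.82). The highest of the BPH/2J males stood apart for *Calb1* (12.56), *Cry2* (8.39), *Gsto1* (9.88), *Mcm6* (6.48), *Sdha* (12.70), *Tmem207* (10.62) and *Wt1* (7.80). The lowest of the BPN/3J males stood apart for *Acox2* (9.36), *Col4a4* (8.11), *Gucy1a1* (8.38), *Hmgcs1* (12.04), *Sdf2l1* (10.05), *Serpina1f* (10.33), *Slc22a7* (11.36) and *Wt1* (6.86). The highest of the BPN/3J males stood apart for *C1qb* (9.20), *Eci1* (10.50), *Gstt2* (10.52) and *Igfbp4* (12.30).

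The strain difference of 66 named genes differed between males and females by the interaction of strain and sex in limma (Benjamini-Hochberg adjusted p under 0.05), and the male minus female differences on the log2 scale follow in brackets. The strain rise was larger in males, with the same sign in females, for *Abcc9* (0.78), *Acot3* (0.55), *Acox2* (1.18), *Amt* (0.26), *Cbr2* (0.98), *Cyp2j6* (0.25), *Cyp4a14* (1.37), *Cyp4a31* (0.78), *Cyp51* (0.38), *Gdpd3* (0.76), *Gstt2* (0.38), *H60b* (0.62), *Hdc* (4.43), *Idi1* (0.61), *Mgst3* (0.54), *Mme* (0.55), *Scgb1c1* (1.24), *Serpina1d* (2.78), *Serpina1f* (0.38), *Slc15a2* (0.25), *Slc39a8* (0.38), *Snx31* (1.13) and *Sqle* (0.31). The strain fall was larger in males, with the same sign in females, for *1810037I17Rik* (−0.32), *Acsm1* (−0.77), *Adgre5* (−0.40), *Akr1c18* (−1.44), *Csf1r* (−0.30), *Fkbp5* (−0.52), *Lrmda* (−0.37), *Mas1* (−0.91), *Nlrc4* (−0.88), *Sectm1b* (−0.47), *Slc6a18* (−1.18), *Tmem267* (−0.71) and *Vwa1* (−0.69). The difference had the same sign but was smaller in males for *Angptl7* (−0.77), *Cyp4b1* (−1.64), *Inmt* (−2.17), *Kcnk1* (0.38), *Slco1a6* (−0.29) and *Spink6* (1.16). A rise in males stood beside a female estimate below 0 for *Cd55* (1.34), *Ces1g* (2.75), *Cyp2d12* (1.51), *Cyp7b1* (1.27), *Ehhadh* (0.31), *Gldc* (0.65), *Gsta3* (0.67), *Havcr1* (0.60), *Npr2* (0.30), *Slc22a13* (0.39), *Slc22a26* (1.76), *Slc38a3* (1.04), *Slc7a12* (1.42), *Slco1a4* (1.37) and *Ugt2b37* (1.45). A fall in males stood beside a female estimate above 0 for *Ces1e* (−0.34), *Cndp1* (−1.68), *Ct55* (−1.73), *Hk2* (−0.97) and *Pparg* (−1.03). The male difference itself did not pass for *Cyp4a12a* (0.79), *Scrg1* (−3.19), *Slc7a13* (−0.86) and *Ucp1* (−3.58). *1810037I17Rik* is given by its brighter probe set, and the other had a male minus female difference of 0.0085 (adjusted p = 0.994). Without BPN/3J females 2 and 5, which had the highest hepatocyte means (11.49 and 11.78), the female estimate changed sign for 6 of the 66, to values of −0.0022 for *Amt*, 0.0067 for *Cd55*, 0.40 for *Ces1g*, 0.018 for *Gsta3*, 0.18 for *Slco1a4* and 0.058 for *Ugt2b37*. The interaction passed for 56 of the 66 without these 2 arrays and not for *1810037I17Rik*, *Acot3*, *Adgre5*, *Angptl7*, *Csf1r*, *Cyp2j6*, *Havcr1*, *Npr2*, *Slco1a6* and *Sqle*.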

How the results depend on the processing

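Counts of called probe sets moved with the test and threshold. At the Bonferroni level 740 probe sets differed between BPH/2J and BPN/3J males, against 471 with a fold of at least 1.5 required in addition, 447 by a t-test with unequal variances (578 with pooled variance) and 1188 with the variance of all 24 arrays, and 570 to 623 without 1 array. At the Benjamini-Hochberg level there were 4381, against 720 with that fold required in addition and 3711 to 4111 without 1 array. The interaction gave 508 and, by Bonferroni, 104. Females gave 681 by Bonferroni and 4180 by Benjamini-Hochberg. Without BPN/3J females 2 and 5, a choice made after the data were seen, the interaction gave 415 and females 466. With the replicate number as a block the counts were 321 in males, 304 in females and 359 for the interaction. The labels do not say what the numbers stand for, and they were treated as names in the main fit. Same-numbered arrays of the male strains deviated with r between −0.47 and 0.09. Differently numbered arrays were not set beside them, so whether the numbers mark a shared batch was not tested. The other settings, with liver or adrenal covariates among them, left the male counts within 1.5 times, and the cause of the larger moves was not tested beyond the added requirement of fold and the stricter adjustment.

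For the 224 named genes no call turned direction in any setting. Over all genes and settings 4780 results stayed on their side of the threshold, 349 lost a call and 11 gained one. Estimates near 0 that were not called could change sign. With the hepatocyte covariate *Ucp1* went from −0.08 to 0.02 and *Scrg1* from 0.0015 to −0.0013 in males. Lists with few called members were the least stable. The 1 fall in principal cells, *Aqp4*, was lost by the unequal-variance t-test, with arrays at a common median and with the replicate number as a block. It was also lost without BPH/2J male 1, 2, 3 or 6 or BPN/3J male 1, 2, 3, 4 or 5. The 1 rise among immediate early genes, *Junb*, was lost by the unequal-variance t-test and without BPH/2J male 2, 4, 5 or 6 or BPN/3J male 1, 2 or 3. The clock genes lower numbered 1 without BPH/2J male 2, 5 or 6 or BPN/3J male 1, 3, 4, 5 or 6, and those higher 2 or 3 without BPH/2J male 1 or 3 or BPN/3J male 6. The 1 respiratory chain fall was lost without any single array other than BPH/2J male 2 and BPN/3J male 2. In the early proximal tubule 1 gene was higher without BPH/2J male 4 or BPN/3J male 1, and in podocytes 1 gene was lower in the same 2 cases. Cholesterol synthesis had 5 members lower with all 24 arrays or with the replicate number as a block, against 8.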
